A study of Mus musculus with 12 samples.

Results

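Matrix metalloproteinases cut the proteins of the extracellular matrix, and Timp1 is one of the inhibitors that block them. The data described here are the mRNA levels of 9 such proteases (Mmp2, Mmp3, Mmp7, Mmp8, Mmp9, Mmp10, Mmp13, Mmp14 and Mmp15) and of Timp1 in mouse rectum. These 10 genes, of 17734 in the expression table, were chosen by name. Mmp7 was selected on its lower values with berberine (BBR, a plant alkaloid), so its values are given as a description, with no test. All 10 passed the filter on low values, a mean of at least 0.1 FPKM (a fragment count scaled for transcript length and library size) over all 12 mice. Mmp8 and Mmp7 passed it through their levels in the colitis mice alone, so Mmp8 is also described without a test, and the tests cover the other 8.

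The rectum of 12 male C57BL/6 mice of 8 to 10 weeks was sampled, in 4 groups of 3. Normal mice drank water. Normal mice receiving BBR drank water and were given BBR by gavage, at 100 mg/kg per day. Colitis mice drank 2.5% dextran sulfate sodium (DSS), a polymer that injures the colonic epithelium, for 7 days, and colitis mice receiving BBR had both. The labels give 6 days of BBR and the methods of the study 7, with tissue taken on day 8. The labels name no genotype beyond the strain.

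The 4 mice numbered 4, 1 in each group, stood apart from the other 8. Their FPKM columns summed to 482194 to 504337, against 696286 to 765876, and 872 to 1086 genes were listed at 0 in them, against 1332 to 1926. The spacing of the low FPKM values implied about 17400000 to 19700000 counted reads in these mice, and 12700000 to 13800000 in the 8 others. Whether these mice were handled on another day is not stated in the labels, so the counts of tested members past each limit are also given without them. Epcam, a marker of intestinal epithelium, lay at 780 to 1201 FPKM in all 12 mice. Krt5 and Trp63, the defining markers of squamous epithelium, stayed at or below 0.18 FPKM, while other genes of the squamous list were higher, with Krt14 at 0.16 to 1.96 FPKM, Krt13 at up to 5.18 FPKM and Sprr1a at up to 435.7 FPKM.

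The metalloproteinases are made as inactive proenzymes, and most are secreted. Stromelysins (Mmp3, Mmp10) cut proteoglycans, fibronectin and other proenzymes, collagenases (Mmp8, Mmp13) open the collagen triple helix, gelatinases (Mmp2, Mmp9) cut the unwound chains, and Mmp14 and Mmp15 sit in the cell membrane, where Mmp14 activates pro-Mmp2. Mmp7, matrilysin, is a small epithelial protease. Many stromelysin and collagenase genes are switched on by interleukin 1 and tumor necrosis factor through AP-1, a dimer of Fos and Jun proteins, and are known for their high levels in ulcerated gut.

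Of the members, 5 (Mmp13, Mmp3, Mmp10, Mmp8 and Mmp7) belong to a cluster of 10 metalloproteinase genes on chromosome 9. The 250 bases before the start site of each gene, from RefSeq on build GRCm38.p6, were searched for the 7-base AP-1 site, TGAGTCA or its reverse complement TGACTCA, so that both strands were covered. Windows were found for 8 of the 10 members and not for Mmp2 and Mmp9. The site was present in 4 of the 8, those of Mmp13, Mmp3, Mmp10 and Mmp7. Of all 32851 promoter windows 4.46% held it, and of the 12156 tested genes with a window 4.39% did. Its first base lay 35 bases before the start of Mmp13, 46 before Mmp3, and 63 before both Mmp10 and Mmp7. The second of the 2 Mmp7 windows held no match, and neither did the windows of Mmp8, Mmp14, Mmp15 and Timp1. The last 90 bases before the start are shown for the 4 genes with the site, which include the members with the largest differences between groups, and for Mmp8, their neighbor without it, with the site in capitals.
Mmp13 (chr9:7272424-7272513, + strand): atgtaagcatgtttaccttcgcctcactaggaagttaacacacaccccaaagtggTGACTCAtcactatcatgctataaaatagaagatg
Mmp3 (chr9:7445732-7445821, + strand): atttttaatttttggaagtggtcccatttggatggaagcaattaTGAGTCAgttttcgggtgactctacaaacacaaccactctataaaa
Mmp10 (chr9:7502252-7502341, + strand): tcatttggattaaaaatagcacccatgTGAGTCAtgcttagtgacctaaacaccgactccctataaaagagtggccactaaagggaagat
Mmp7 (chr9:7692000-7692089, + strand): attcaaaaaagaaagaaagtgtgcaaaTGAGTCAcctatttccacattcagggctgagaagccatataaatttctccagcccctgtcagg
Mmp8 (chr9:7558339-7558428, + strand): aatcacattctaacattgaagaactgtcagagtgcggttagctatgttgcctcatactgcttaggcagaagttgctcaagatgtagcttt
The same letters were found for 3 of 11 other metalloproteinase genes with a window, Mmp12 (in 1 of its 2 windows), Mmp1a and Mmp1b, all in the chromosome 9 cluster, and for 0 of 5 genes of other inhibitors. A match of letters is a description of the sequence, and binding at these sites was not measured.

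The first question of the design is what DSS colitis does to these genes. Each difference was read at an adjusted limit (a p below 0.05 after adjustment over all genes) and at the limit used in the study (unadjusted P, 0.05 or less). Mmp10, Mmp13 and Mmp3 were among the 4 members with the highest means in colitis mice and among the 6 lowest in normal mice. Mmp3 was 75.1 times, Mmp10 115.0 times and Mmp13 34.4 times as high in colitis mice as in normal mice by the ratio of group means, and Mmp8 was at least 17.0 times as high. Timp1 was 6.65 times as high. Colitis mouse 2 carried much of these ratios, which without it were 38.2 for Mmp3, 32.5 for Mmp10, 9.59 for Mmp13, at least 7.51 for Mmp8 and 2.90 for Timp1. Without normal mouse 4 the ratio was 131 for Mmp3, and without normal mouse 3 it was 175 for Mmp10. Mmp2, Mmp14 and Mmp15, the most abundant members of normal rectum, passed neither limit. In bulk RNA, fewer cells of a type and less RNA per cell cannot be told apart.

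**Figure D1:**
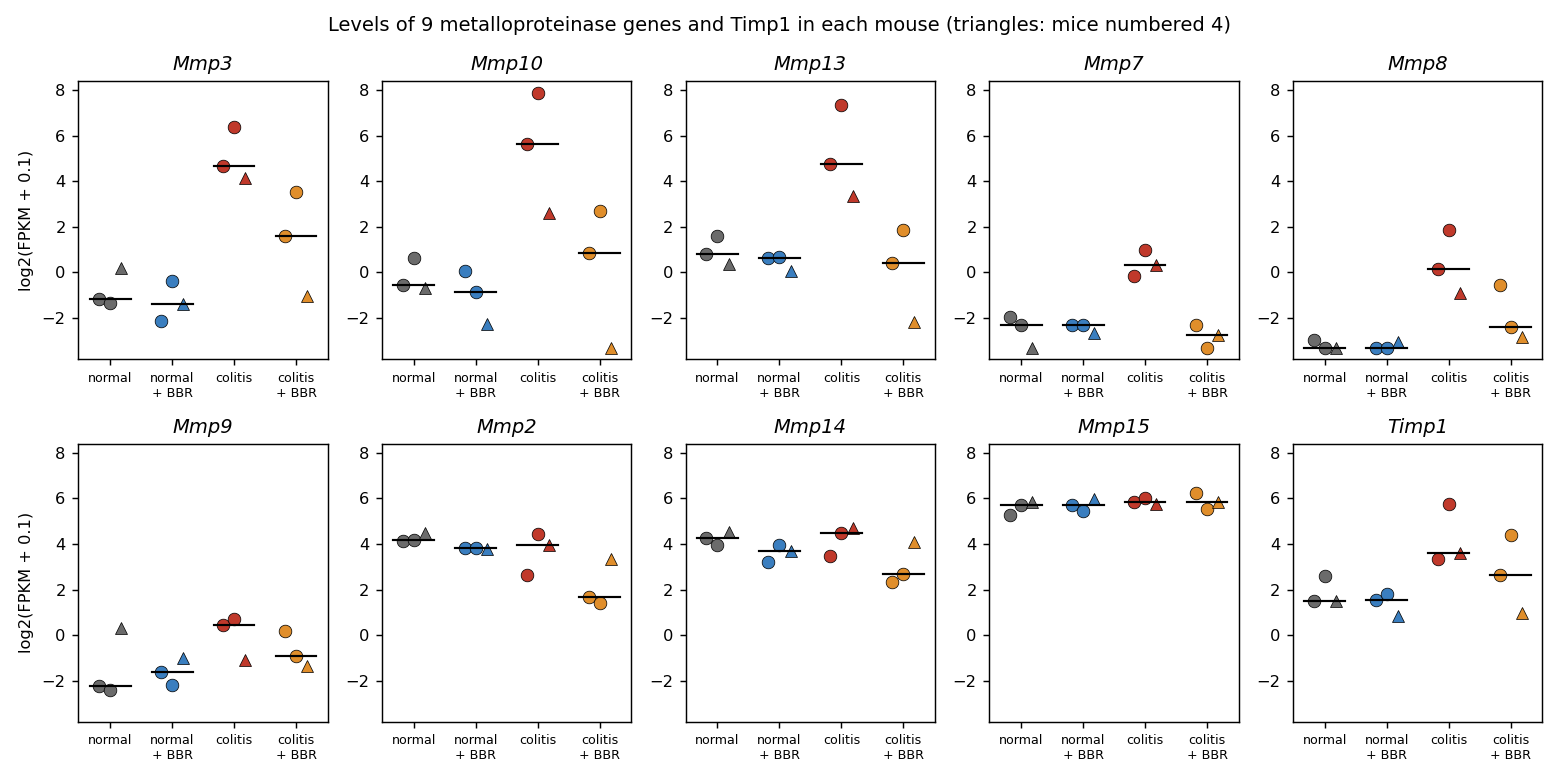
Level of each member on the log2(FPKM + 0.1) scale (vertical axis) in the 4 groups, with 1 point per mouse, triangles for the mice numbered 4 and a bar at the group median. Mmp3, Mmp10, Mmp13, Mmp7, Mmp8 and Timp1 lie higher in all 3 colitis mice than in any normal mouse, and Mmp15 lies between 38.3 and 74.6 FPKM in all 12 mice.

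Mmp3, stromelysin 1, measured 0.34, 0.30 and 1.04 FPKM in normal mice 1, 3 and 4, while colitis mice 1, 2 and 4 had 25.0, 83.4 and 17.7 FPKM. Every colitis mouse lay above every normal mouse. The difference was 5.84 ± 0.99 (SE, n = 3 per group) on the log2(FPKM + 0.1) scale, with an adjusted p of 0.0241 by limma over 15315 genes.

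Mmp10, stromelysin 2, measured 0.58, 1.43 and 0.53 FPKM in the normal mice and 48.9, 236 and 6.02 FPKM in colitis mice 1, 2 and 4. The groups did not overlap, but the colitis mice themselves spanned a wide range, with mouse 2 far above mouse 4. The log2 difference of 5.58 ± 1.47 passed the unadjusted limit but not the adjusted one (limma, adjusted p = 0.0794). Without colitis mouse 2 it was 4.32, and without colitis mouse 4 it was 6.95 with an adjusted p of 0.0459 by limma.

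Mmp13, the main collagenase of rodents, measured 1.67, 2.93 and 1.19 FPKM in the normal mice and 27.0, 162 and 9.99 FPKM in colitis mice 1, 2 and 4. Again no colitis mouse lay as low as any normal mouse, and colitis mouse 2 was the highest. It differed by 4.22 ± 1.02 on the log2 scale (limma, adjusted p = 0.0674). Without colitis mouse 4 it was 5.12, with an adjusted p of 0.0422 by limma, and without colitis mouse 2 it was 3.12.

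Mmp8, the collagenase stored in neutrophil granules, was listed at 0.03, 0 and 0 FPKM in the normal mice, all under the level of 3 reads estimated for those libraries (0.0679 to 0.0966 FPKM). In colitis mice 1, 2 and 4 it measured 1.01, 3.49 and 0.44 FPKM, so the groups did not overlap. The fitted difference was 3.56 on the log2 scale, and it ran from 1.219 to 6.205 over the alternative settings of the processing. The 17.0-fold given above sets the mean of the colitis mice against the highest 3-read level of a normal library.

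Mmp9, the gelatinase of neutrophils and macrophages, measured 0.11, 0.09 and 1.15 FPKM in normal mice 1, 3 and 4, while colitis mice 1, 2 and 4 had 1.25, 1.53 and 0.37 FPKM. The groups overlapped, since normal mouse 4 was above colitis mouse 4, and the difference missed both limits (limma, adjusted p = 0.271). Without the mice numbered 4 it was 2.89 on the log2 scale and passed both (limma, adjusted p = 0.0334).

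Mmp7 lay at 0.16, 0.10 and 0 FPKM in the normal mice, all under the estimated level of 3 reads (0.158 to 0.225 FPKM), and at 0.81, 1.89 and 1.15 FPKM in colitis mice 1, 2 and 4. The colitis mice did not overlap the normal mice. Against the highest 3-read level of a normal library, its mean was at least 5.70-fold higher.

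Timp1, the inducible inhibitor of secreted metalloproteinases, measured 2.75, 5.91 and 2.72 FPKM in the normal mice and 10.1, 53.6 and 11.9 FPKM in colitis mice 1, 2 and 4. All colitis mice were above all normal mice. The log2 difference was 2.36 ± 0.79 (limma, adjusted p = 0.136), and without colitis mouse 2 it was 1.60 and missed the unadjusted limit too.

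Besides Mmp9, the members that passed neither limit in colitis were the abundant ones. Mmp15, a membrane protease, measured 38.3, 51.8 and 56.6 FPKM in the water-drinking mice and 58.0, 65.7 and 53.5 FPKM in the DSS-drinking ones. Mmp2, gelatinase A of fibroblasts, ran from 17.2 to 22.1 FPKM in the first group and from 6.09 to 21.7 FPKM in the second. Mmp14, its membrane activator, ran from 15.3 to 22.9 and from 11.1 to 25.8 FPKM. All 3 overlapped between the groups.

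In all, 1 of the 8 tested members (Mmp3) rose past the adjusted limit in colitis, against 1.08% of all genes in either direction, and 4 of 8 (with Mmp10, Mmp13 and Timp1) were higher at the unadjusted limit, against 5.56% of all genes. For the same 4 the groups did not overlap, as for 29.3% of all genes. The median log2 difference of the 8 was 1.91, and that of all tested genes was -0.32. Without the mice numbered 4, 4 of the 8 passed the adjusted limit, Mmp3 (6.77), Mmp10 (6.72), Mmp13 (4.84) and Mmp9 (2.89), and so did 5.25% of all genes. Timp1 was the fifth past the unadjusted limit (limma, adjusted p = 0.106), on the higher side of which 6.07% of all genes then lay. Leaving out any 1 mouse other than colitis mouse 4 left 0 members past the adjusted limit, with 3 to 5 higher at the unadjusted one, against 4.32% to 5.03% of all genes. For Mmp3 the adjusted p by limma then reached 0.115. By an exact permutation test on 1 gene, 3 mice against 3 cannot give a two-sided p below 0.1.

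**Figure D2:**
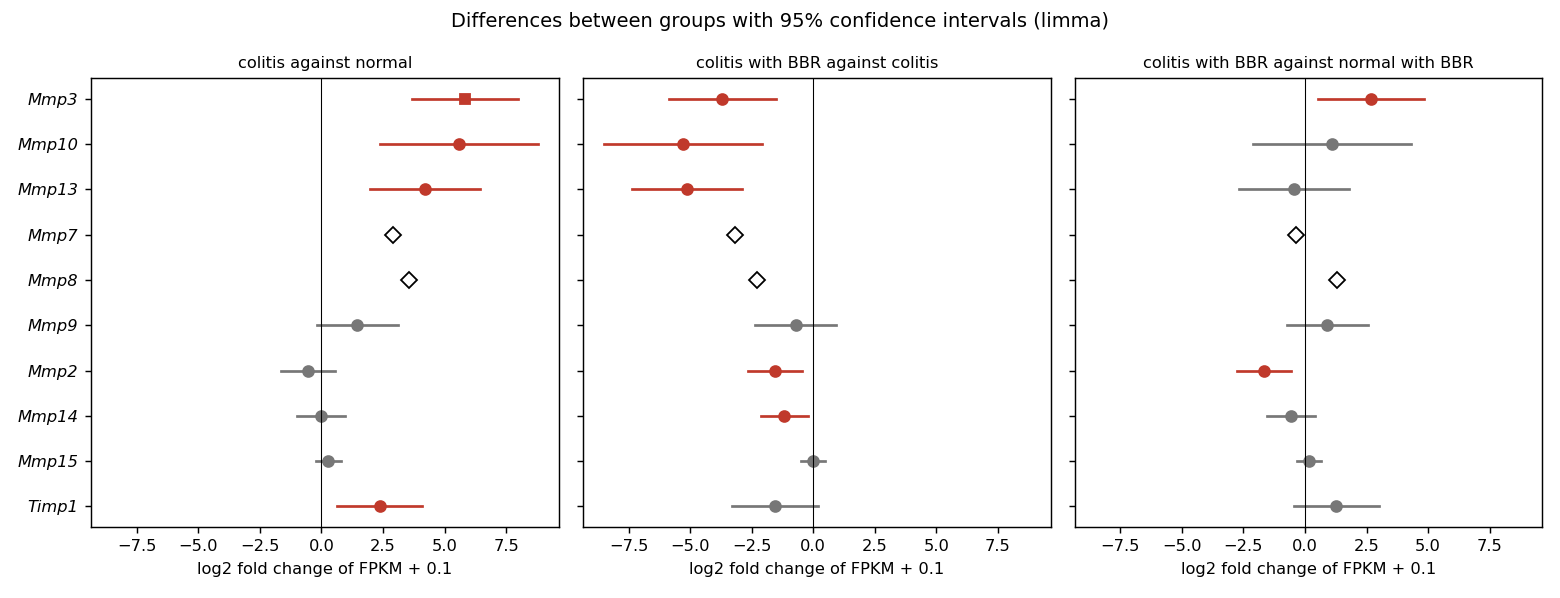
Differences on the log2(FPKM + 0.1) scale (horizontal axis) with 95% confidence intervals for the 8 tested members, in red past the unadjusted limit and as squares past the adjusted limit, and Mmp7 and Mmp8 as open diamonds without an interval. In colitis the intervals of Mmp3, Mmp10, Mmp13 and Timp1 lie above 0, and with BBR in colitis those of Mmp13, Mmp10, Mmp3, Mmp2 and Mmp14 lie below 0.

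The second question is what BBR did during colitis. Mmp13, Mmp10 and Mmp3 had lower means in the mice that received BBR: that of Mmp13 was 41.0 times lower than in colitis mice, that of Mmp10 36.0 times and that of Mmp3 8.47 times. Mmp8, Mmp2 and Mmp14 were lower as well, by ratios of 6.94, 2.76 and 2.09. Leaving out 1 mouse moved the ratio between 11.4 (without colitis mouse 2) and 97.5 (without colitis mouse 3 receiving BBR) for Mmp13, between 10.2 and 113 for Mmp10 and between 4.30 and 25.2 for Mmp3, at the same mice. For Mmp8 it was 3.06 without colitis mouse 2 and at least 16.9 without colitis mouse 2 receiving BBR, where the other mice are set at the highest 3-read level of their group. It reached 5.11 for Mmp2 and 3.49 for Mmp14 without colitis mouse 4 receiving BBR. The 5 tested differences among these passed the unadjusted limit and none passed the adjusted one. Mmp15 had nearly equal means (59.5 against 59.0 FPKM).

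Mmp13 measured 1.24, 3.49 and 0.12 FPKM in colitis mice receiving BBR 2, 3 and 4. All 3 were below the lowest colitis mouse, and 2 of them lay within or below the range of normal mice. The log2 difference was -5.12 ± 1.02, and its adjusted p by limma was 0.418. It was between -6.03 and -4.01 when any 1 mouse was left out, and without colitis mouse 3 receiving BBR the adjusted p by limma was 0.0361.

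Mmp10 measured 1.72, 6.37 and 0 FPKM in the same mice. Mouse 3 of this group, the highest, was just above colitis mouse 4 at 6.02 FPKM, so the groups overlapped by that pair. The log2 difference was -5.29 ± 1.47 (limma, adjusted p = 0.486), and it was -3.59 without colitis mouse 4 receiving BBR, in which Mmp10 was listed at 0.

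Mmp3 measured 2.95, 11.6 and 0.39 FPKM. The groups did not overlap, though 2 of the mice receiving BBR remained above all normal mice. On the log2 scale the difference was -3.69 ± 0.99 (limma, adjusted p = 0.486) and was -2.49 without colitis mouse 4 receiving BBR.

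Colitis mouse 4 receiving BBR was the lowest of its group for 6 of the 10 members, and it differed from mice 2 and 3 of its group in other genes too. Its summed FPKM of 12 neutrophil genes was 4.48, against 238 and 240 in the other 2, and S100a8, a defining neutrophil gene, was at 0.31 FPKM against 118 and 148. Its summed FPKM of 8 smooth muscle genes was 3565, against 497 and 514. Without the mice numbered 4 the log2 differences were -4.92 for Mmp13, -4.97 for Mmp10, and -2.94 for Mmp3, all past the unadjusted limit and none past the adjusted one, and Mmp8 was at -2.47.

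Mmp8 measured 0.58, 0.09 and 0.04 FPKM in colitis mice receiving BBR, where mice 3 and 4 lay under the estimated level of 3 reads. Mouse 2 overlapped colitis mouse 4. This gave a fitted log2 difference of -2.30, which ran from -3.03 to -0.953 over the alternative settings of the processing.

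Mmp7 was at 0.10, 0 and 0.05 FPKM, all under the level of 3 reads, against 0.81 to 1.89 FPKM in colitis mice. The groups did not overlap, which is what it was selected on. Set at the highest 3-read level of its group (0.227 FPKM), its mean was at least 5.65-fold lower. The fitted log2 difference was -3.19, and it ran from -4.914 to -1.095 over the alternative settings.

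Mmp2 measured 3.06, 2.59 and 10.01 FPKM in colitis mice receiving BBR. Mouse 4 of this group overlapped colitis mouse 1 at 6.09 FPKM, while mice 2 and 3 were the lowest of all 12 mice. The log2 difference was -1.54 ± 0.50 (limma, adjusted p = 0.568), and without colitis mouse 2 it was -1.16 and missed the unadjusted limit. Mmp14, its activator, measured 4.99, 6.34 and 17.1 FPKM, with mouse 4 again the highest. Its log2 difference of -1.18 ± 0.44 (limma, adjusted p = 0.638) missed the unadjusted limit without any 1 of colitis mice 2 or 4 or of colitis mice 2 or 3 receiving BBR.

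Timp1 measured 6.20, 20.6 and 1.89 FPKM and overlapped the colitis mice through mouse 3. The difference missed both limits (limma, adjusted p = 0.843), as did those of Mmp9, at 1.05, 0.43 and 0.29 FPKM, and Mmp15, at 74.6, 46.9 and 56.8 FPKM.

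Of the 8 tested members, 5 were lower at the unadjusted limit, against 5.2% of all genes, and 0 passed the adjusted limit, as did 0% of all genes. For 2 of the 8, Mmp13 and Mmp3, the groups did not overlap, as for 7.08% of all genes. Without the mice numbered 4 the counts at the 2 limits were again 5 and 0, against 6.21% of all genes lower at the first. The median log2 difference of the 8 was -1.55, and that of all genes was -0.09. The comparison shares the colitis mice with the one above, so a high colitis mouse enters both.

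The makeup of the metalloproteinase transcripts differed with colitis. FPKM is a value per length, so the 9 genes can be added. Their sum was 77.5 to 105 FPKM in normal mice. Colitis mice 1, 2 and 4 reached 179, 598 and 131 FPKM, and the sum was 77.8 to 90.3 FPKM in colitis mice receiving BBR. Mmp3, Mmp10 and Mmp13 made up 2.62% to 5.20% of the sum in normal mice and 56.4%, 80.5% and 25.9% in colitis mice 1, 2 and 4. These genes were grouped after their values had been seen, so a larger share in colitis follows from the choice and carries no test. With BBR in colitis the share was 6.54%, 27.5% and 0.601% in mice 2, 3 and 4, so mouse 3 was above colitis mouse 4.

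**Figure D3:**
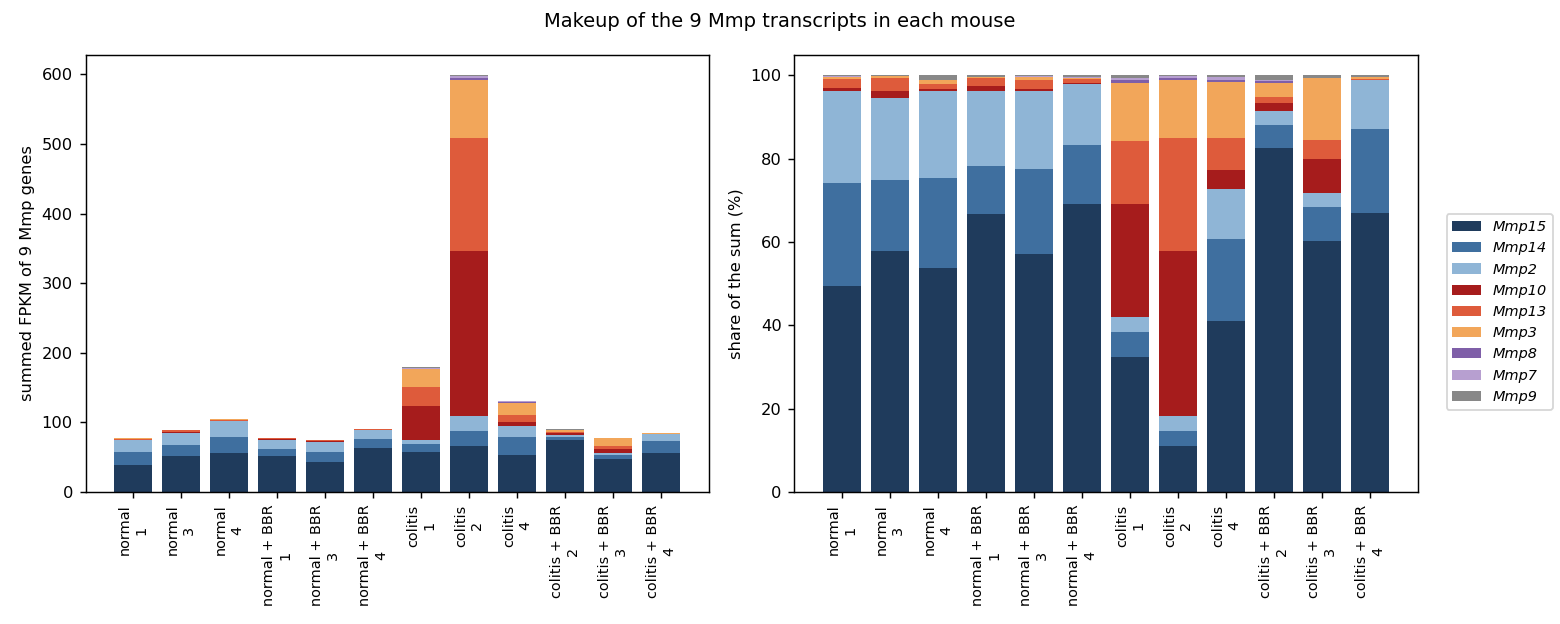
Summed FPKM of the 9 metalloproteinase genes in each mouse (left) and the share of each gene in that sum in percent (right). The sum stands at 598 FPKM in colitis mouse 2, and Mmp15 is the largest single share in every mouse except colitis mouse 2.

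The order of the members by group mean differed as well. It ran Mmp15, Mmp14, Mmp2, Timp1, Mmp13 in normal mice, where Mmp14 and Mmp2 (19.1 and 19.0 FPKM) did not differ beyond their spread. In colitis mice it ran Mmp10 (97.1 FPKM), Mmp13 (66.3), Mmp15 (59.0), Mmp3 (42.1) and Timp1 (25.2), and the spread of Mmp10 (SD 123) and Mmp13 (SD 83.3) was larger than the gaps between these 5. Colitis mouse 2 held the highest value of its group for 9 of the 10 members. The change at the head of the order came from this mouse alone. In colitis mice 1 and 4 Mmp15 was still the highest member, at 58.0 and 53.5 FPKM. In colitis mice receiving BBR the order began again with Mmp15, followed by Timp1 (9.57 FPKM) and Mmp14 (9.47), which did not differ beyond their spread.

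The ratio of protease to inhibitor transcripts was also read. The summed FPKM of Mmp3, Mmp10 and Mmp13 was 0.788 to 1.01 times that of Timp1 in normal mice and 2.83 times or more in each colitis mouse, with 8.98 times in mouse 2. With BBR in colitis it was 0.953, 1.04 and 0.270 times in mice 2, 3 and 4, all below every colitis mouse. These ratios were computed after the values had been seen and carry no test.

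The third comparison is BBR in normal mice. None of the 8 tested members passed the adjusted limit (0% of all genes) or the unadjusted limit in limma (1.36% of all genes in either direction), and without the mice numbered 4 both counts were 0 as well (1.80% of all genes at the unadjusted limit). Mmp2 measured 14.1, 14.1 and 13.5 FPKM and Mmp14 9.04, 15.3 and 12.9 FPKM in normal mice 1, 3 and 4 receiving BBR, all below the normal mice, where the lowest were 17.2 and 15.3 FPKM. These were the 2 of 8 whose groups did not overlap, against 9.62% of all genes, and for Mmp14 the edge was narrow, 15.25 against 15.27 FPKM. In a fit of these 2 groups alone, both passed the unadjusted limit, at -0.44 and -0.63, as did 4.91% of all genes. Mmp3, Mmp10, Mmp13 and Timp1 stayed within 0.13 to 0.66, 0.11 to 0.96, 0.96 to 1.51 and 1.70 to 3.42 FPKM.

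What remained of colitis under BBR was read against normal mice receiving BBR. Mmp3 was higher in the colitis mice receiving BBR by 2.68 ± 0.99 on the log2 scale (limma, adjusted p = 0.220), 1 of 8 members higher at the unadjusted limit against 2.37% of all genes. It missed that limit in 2 of the 6 fits with 1 mouse left out, where it fell as low as 1.59. With a block for mouse number it was 2.15 and missed the limit too. The groups overlapped through mouse 4, at 0.39 FPKM. Mmp2 was lower, by -1.66 ± 0.50 (limma, adjusted p = 0.215), and it was the 1 member of 8 lower at the unadjusted limit, against 17.3% of all genes. That share was 5.88% with quantile normalization and 4.06% with median centring, and Mmp2 passed the limit under both. None of the 8 passed the adjusted limit, which 0.0392% of all genes did. Mmp2 was also the 1 of 8 whose groups did not overlap, against 20.2% of all genes. Without colitis mouse 4 receiving BBR, 5 members passed the unadjusted limit and 2 the adjusted one, against 38.6% and 14.7% of all genes, with Mmp3 at 3.88 (limma, adjusted p = 0.0202) and Mmp2 at -2.26 (limma, adjusted p = 0.0160). The counts were the same, 5 and 2, without all mice numbered 4, against 38.9% and 15% of all genes.

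The effect of BBR in colitis mice was also set against its effect in normal mice, as an interaction. Mmp13 (-4.65 ± 1.45) and Mmp3 (-3.16 ± 1.40, both log2) passed the unadjusted limit on the lower side, 2 of 8 against 1.72% of all genes. None passed the adjusted limit, as for 0% of all genes (limma, adjusted p = 1.00 for Mmp13 and for Mmp3). Mmp10 was at -4.50 ± 2.07 and missed the unadjusted limit. Without the mice numbered 4 the counts were 3 (with Mmp10) and 0, against 2.51% of all genes lower at the first limit.

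Osm, Prtn3, Ngp and Krt6a, 1 gene in each of 4 of the lists that follow, passed the filter on low values through the colitis mice alone and are left out of the tested genes of their lists. The rest of the family was followed with a list of 14 other metalloproteinase genes, of which 11 were in the table and 8 passed the filter. In colitis 0 passed the adjusted limit and 4 the unadjusted one, 2 higher and 2 lower, against 5.56% and 15.9% of all genes. Mmp12, macrophage elastase and the neighbor of Mmp13, was at 0.34, 0.35 and 0.67 FPKM in normal mice and at 1.72, 5.92 and 0.88 in colitis mice (log2 difference 2.05, limma, adjusted p = 0.111). Mmp28, epilysin, was higher at 4.02, 3.94 and 4.62 FPKM against 1.25 to 1.54 (1.48, limma, adjusted p = 0.106). Mmp17 and Mmp23 were lower, by -2.29 and -1.11. With BBR in colitis Mmp12 (-2.25) and Mmp28 (-1.14) were lower at the unadjusted limit, against 5.2% of all genes, and 0 of the 8 passed the adjusted one. Mmp28 kept 4.02 FPKM in mouse 3.

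Inhibitors other than Timp1 were read from a list. Timp2, Timp3, Timp4, Reck, Thbs1 and Thbs2 were tested, and in colitis 5 of the 6 had lower means, as did 73.7% of all genes, 4 of them at the unadjusted limit, against 15.9% of all genes, and 0 at the adjusted one. These shares of all genes depended on the scaling. With quantile normalization they were 54.4% and 9.93%, and with median centring 48.7% and 8.13%. The list was not counted under either. Timp2, which also takes part in the activation of pro-Mmp2, was at 24.4, 24.6 and 55.5 FPKM in normal mice, and colitis mice lay without overlap below them at 5.36, 19.5 and 17.7 FPKM (-1.38, limma, adjusted p = 0.217). Timp4 was at 1.54 to 2.16 FPKM and at 0.05 to 0.57 FPKM (-2.24, limma, adjusted p = 0.118). Timp1 made up 2.99% to 9.75% of the summed FPKM of the 4 Timp genes in normal mice and 43.4%, 57.0% and 24.6% in colitis mice 1, 2 and 4. The share was 24.6%, 59.3% and 3.35% in colitis mice 2, 3 and 4 receiving BBR, so mouse 3 of that group was above every colitis mouse. With BBR in colitis 0 of the 6 passed the unadjusted limit.

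**Figure D4:**
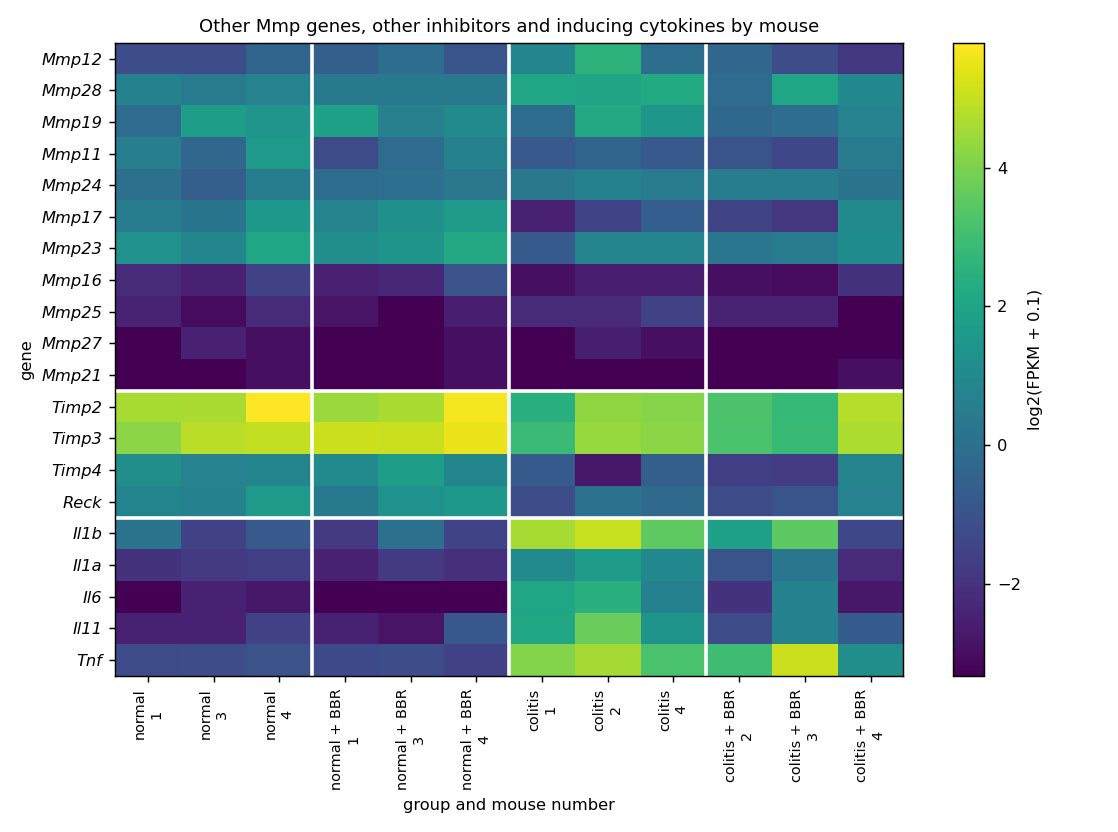
Log2(FPKM + 0.1), by color, of 11 other metalloproteinase genes, 4 other inhibitors and 5 cytokines (rows) in the 12 mice (columns, by group and mouse number). Mmp12, Mmp28 and the 5 cytokines are brighter in the colitis mice, and Timp2, Timp4 and Reck are darker.

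Cytokines known to induce metalloproteinase genes formed another list. Of 9 tested, 5 rose past the adjusted limit in colitis and 7 were higher at the unadjusted limit, against 1.08% and 5.56% of all genes. Il1b, interleukin 1 beta, was at 0.24 to 1.03 FPKM in normal mice and reached 24.4, 32.5 and 11.6 FPKM in the colitis ones (log2 difference 5.11, limma, adjusted p = 0.0392). Tnf (5.08), Il11 (4.59), Il6 (4.57) and Il1a (3.02) were the other 4. Il6, Il17a and Il22 lay under the estimated level of 3 reads in every mouse without DSS. The counts of this list thus rest in part on genes that the filter kept for their level with DSS. With BBR in colitis 9 of 9 had lower means, as did 62% of all genes, 4 at the unadjusted limit, against 5.2%, and 0 at the adjusted one, and Il1b measured 3.58, 11.2 and 0.29 FPKM. The 62% of all genes became 44.9% with quantile normalization and 42.1% with median centring. Tnf was not among the 4, at 7.68, 33.8 and 2.15 FPKM against 8.94 to 23.4 in colitis mice, so colitis mouse 3 receiving BBR held the highest Tnf of all 12.

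Of 12 AP-1, Ets and Runx factor genes, whose products bind metalloproteinase promoters, 0 were higher in colitis at the unadjusted limit and 2 were lower, Fos (-1.70) and Junb (-0.88), a share near the 15.9% of all genes. With BBR in colitis 0 of 12 passed it. Among 10 tested activators and partners of the proenzymes, 3 were higher in colitis at the unadjusted limit (5.56% of all genes), among them Plaur, the urokinase receptor (3.32), and Plat, tissue plasminogen activator (3.79), and 3 were lower with BBR in colitis (5.2% of all genes), among them Plau, urokinase (-2.14). Of 16 Adam and Adamts proteases, 4 were higher and 3 lower in colitis (5.56% and 15.9% of all genes), with Adamts4, an aggrecanase, at 2.46, and 3 were lower with BBR in colitis (5.2%). None of these passed the adjusted limit.

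Marker genes of several cell types moved with the members. The summed FPKM of 12 neutrophil genes was 1.24 to 4.38 in normal mice, 75.6, 522 and 526 in the 3 colitis mice without BBR, and 4.48, 238 and 240 in those with it. Mouse 4 was the lowest of both colitis groups, and so it was for Mmp8. The early granule genes Elane and Mpo stayed at or below 0.23 FPKM in all mice.

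In all genes the share past the unadjusted limit was 5.56% higher and 15.9% lower in colitis and 5.2% lower with BBR in colitis, and the counts of marker genes that follow stand beside these. The excess on the lower side in colitis depended on the scaling. It was 9.72% higher and 9.93% lower with quantile normalization, and 9.42% and 8.13% with median centring. The lists were not counted under either. Of the 9 neutrophil genes tested, 8 were higher in colitis at the unadjusted limit and 2, S100a8 and Ltf, at the adjusted one, and 1, Itgam, was lower with BBR in colitis at the unadjusted limit. S100a8, Retnlg and Stfa2l1 lay under the estimated level of 3 reads in every mouse without DSS. These neutrophil counts thus rest in part on genes that the filter kept for their level with DSS. The summed FPKM of 10 macrophage and monocyte genes was 148 to 196 in normal mice and 119 to 249 in colitis mice receiving BBR. In colitis mice 1, 2 and 4 it was 338, 693 and 223, highest in the mouse that carried much of the protease ratios. Of the 10 genes, 5 were higher in colitis and 6 lower with BBR in colitis at the unadjusted limit. Their part in the metalloproteinase values was not tested.

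The layers of the gut wall also differed between samples. The summed FPKM of 8 smooth muscle genes was 1681 to 3201 in normal mice, 88.5 to 703 in colitis mice and 497 to 3565 in colitis mice receiving BBR, and 7 of the 8 were lower in colitis at the unadjusted limit. Timp2, Timp4 and Mmp17 were lower in the same comparison. The 9 fibroblast genes summed to 274 to 469 FPKM in normal mice and 179 to 271 in colitis mice receiving BBR. In colitis mice 1, 2 and 4 they summed to 186, 725 and 306 FPKM. Pdgfra, the receptor that marks gut fibroblasts, was at 2.13, 7.15 and 5.85 FPKM in colitis mice and 1.45, 1.69 and 3.16 FPKM with BBR, an order that Mmp2 shared in colitis. None of the 9 passed the unadjusted limit in colitis, and Pdgfra alone was lower at it with BBR. The 6 endothelial genes summed to 21.8 to 24.5 FPKM without DSS or BBR and 6.55 to 17.2 FPKM in colitis mice, where 3 of the 6 were lower at the unadjusted limit. The 10 colonic epithelial genes summed to 10470 to 18080 FPKM over the 4 groups, with 0 of 10 past the unadjusted limit in colitis. In colitis mouse 2 Sprr1a supplied nearly all of the squamous list, at 435.7 of 444.3 FPKM. Krt4 was listed at 0 or 0.03 FPKM, and 1 of the 5 genes tested (Krt13) was higher in colitis at the unadjusted limit. The 5 genes of the Paneth and secretory crypt list that were in the table summed to 428 to 3888 FPKM, with 1 higher (Lyz1) and 1 lower (Reg4) in colitis at the unadjusted limit. The part of these layers in the results was not tested.

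**Figure D5:**
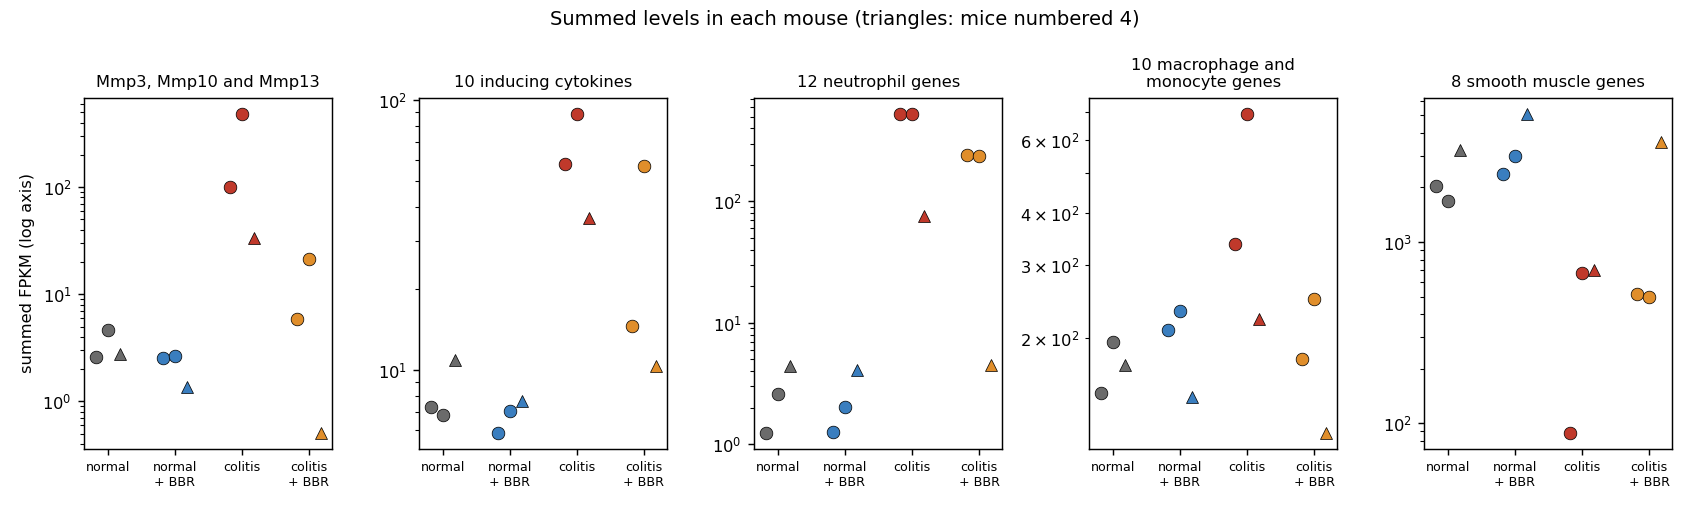
Summed FPKM in each mouse on log axes for Mmp3, Mmp10 and Mmp13 together and for 4 lists of marker genes, with triangles for the mice numbered 4. Colitis mouse 4 receiving BBR lies near the normal mice for neutrophil (4.48 FPKM) and smooth muscle genes (3565 FPKM) and below them for the 3 proteases (0.51 FPKM).

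The genes most like each member over the 12 mice were named by Pearson's r on the log2 scale among 11936 genes with a mean of at least 1 FPKM. The 12 points share the 4 groups, so r is a description. Nearest to Mmp3 were Prss22 (0.98), Ikbkb (0.98) and Il1b (0.97). Nearest to Mmp10 were Ccr1 (0.98), Clec7a (0.97) and Cd300c2 (0.96), and nearest to Mmp13 were Cd300c2 (0.96), Cd53 (0.95) and Plek (0.95). Ccr1, Clec7a, Cd300c2 and Cd53 encode leukocyte surface proteins.

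Nearest to Mmp8 were Chil3 (0.98), Fpr2 (0.95) and Lcn2 (0.94), and nearest to Timp1 were Lyn (0.97), Ms4a6d (0.96) and Pnliprp2 (0.96). Mmp2 lay nearest to Lamb1 (0.97), Pdgfra (0.97) and Tgfbi (0.95), a laminin chain, a fibroblast receptor and a matrix protein. Mmp14 lay nearest to Scube1 (0.96), Lrrc32 (0.95) and Arhgap19 (0.95). The nearest genes of Mmp15 (Map3k8, Pdk4, Adap2) stayed at 0.82 to 0.83, those of Mmp9 (Hp, Cidec, Nnmt) at 0.82 to 0.89 and those of Mmp7 (Rbm3, Rab18, Krtap3-1) at 0.87 to 0.89. After the group means were taken out, r was -0.06 for Mmp7 with Rbm3 but 0.96 for Mmp2 with Tgfbi.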

How the data were processed

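Rectal RNA of 12 mice (colorectum in the labels) was sequenced with single-end 50-base reads. The sources differ on the libraries, since the labels name a TruSeq kit and the methods of the study rRNA depletion and DNA nanoballs. Read filtering by the authors used SOAPnuke, alignment used Bowtie2 (2.2.5) and expression came from RSEM (1.2.12), per the processing notes and the methods of the study. The mm9 build is named there. The deposited table holds FPKM for 17734 genes, 1 column per mouse, not pooled. Its header does not name the unit, which was read from the values, and TPM with genes left out could not be told apart from it. Counts were not used here, so the 3-read levels, which rest on the spacing of low FPKM values, are estimates. These levels cover counting error only and shift with the assumed transcript length. The confidence intervals of the differences do not rest on that spacing and come from the SE of the limma fit, which includes the spread between mice.

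Mice were grouped by the submitters' labels. FPKM values were transformed to log2(FPKM + 0.1), which understates differences of low genes. Genes with a mean of at least 0.1 FPKM (15315) were fitted with limma (3.58.1), with 4 group means, a trend in the prior variance and Benjamini-Hochberg adjustment over all tested genes in each of 5 comparisons. The adjusted limit was 0.05, and the limit of the study, on unadjusted P (0.05 or less), was also read. Each group has 3 mice, labelled as separate animals. The fit was tested on simulated data. The members and lists were chosen with earlier results of these data known. All 10 members are named. Mmp7 and Mmp8 entered no test in the text. Mmp8 was to be tested and was taken out after the data had been seen. Of each list the genes past the adjusted limit were to be named, or else the most abundant ones, and those named beyond that rule were chosen after their values were seen. Alternatives were another pseudocount, filter, normalization or sample set, a replicate block and each mouse left out.

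Deviations from the group means were correlated between normal mice with and without BBR, over 3 pairs with the same number and 6 with different numbers. Only the pair of mice numbered 4 (0.657) lay above the pairs with different numbers (-0.532 to 0.456). The pairs of mice numbered 1 (0.290) and 3 (0.109) lay within that range. The block changed no call in that comparison. The other comparisons share 2 numbers each (0.078 to 0.751). The AP-1 site was chosen with the members' values known. Promoter windows came from RefSeq on GRCm38.p6, and no coordinates were converted between builds.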

Additional observations from a re-analysis of the deposited data

Results flagged for a closer look

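The interaction term of limma, BBR in colitis mice against BBR in normal mice, passed the unadjusted limit for 2 of the 8 tested members. Both were lower, against 1.72% of all genes. Mmp3 measured only 0.30 to 1.04 FPKM in normal mice and 0.13 to 0.66 FPKM with BBR, where 1 mouse lay under 3 reads. That left little room for a fall in normal mice, and the term uses the same colitis mice as the comparisons above. The interaction was -4.65 for Mmp13 and -3.16 for Mmp3, both on the log2(FPKM + 0.1) scale. Neither passed the adjusted limit by limma (adjusted p = 1.00 for both). Mmp13 kept its side of the unadjusted limit whichever mouse was left out, between -5.56 and -3.55, and Mmp3 lost it in 8 of 12 such fits. Groups of 3 mice were too small for the test of single outlying samples.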

How the results depend on the processing

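The differences of tested members that passed the unadjusted limit kept their direction under every alternative in which they could be tested. The other differences are not covered by this. The share of all genes past the same limit under the same setting, in either direction, follows each count in brackets. In colitis against normal, 1 of the 8 tested members passed the adjusted limit (1.08%). This count was 2 with log2(FPKM + 1) (1.27%), 4 with the replicate block (4.79%), 3 with a term for the mice numbered 4 (9.22%), 3 with only the compared groups (3.19%), 4 with mice numbered 1 to 3 alone (5.25%), and 0 to 3 with 1 mouse left out (0.0718% to 1.38%). The 4 with the replicate block were Mmp3, Mmp10, Mmp13 and Timp1, the last just inside it (limma, adjusted p = 0.0498). For BBR in colitis the adjusted count of 0 became 0 to 1 with 1 mouse left out (0% to 0.379%), and the unadjusted count of 5 (6.39%) was 6 with the replicate block (11%), where Timp1, at -2.05, passed, 6 with a term for the mice numbered 4 (9.89%), 4 with only the compared groups (3.51%) and 3 to 6 with 1 mouse left out (3.24% to 10.9%). For BBR in normal mice the unadjusted count of 0 became 2 with only the compared groups (4.91%). For colitis with BBR against normal with BBR, the unadjusted count of 2 (19.7%) was 1 with the replicate block (22.3%), where Mmp3, at 2.15, missed the limit, 5 with mice numbered 1 to 3 alone (38.9%) and 1 to 5 with 1 mouse left out (9.44% to 38.6%), and the adjusted count of 0 was 2 with mice 1 to 3 alone (15%) and 0 to 2 with 1 left out (0% to 14.7%). The interaction count of 2 (2.42%) was 3 with the replicate block (5.09%), where Mmp10, at -4.82, passed, 3 with log2(FPKM + 1) (2.49%), 3 with a term for the mice numbered 4 (4.38%), 3 with mice numbered 1 to 3 alone (3.39%), 1 with a pseudocount of 0.01 (2.25%), 1 with quantile normalization (2.98%), 1 with median centring (2.33%), 1 without the trend (2.58%) and 1 to 3 with 1 mouse left out (1.46% to 5.8%). The cause of these shifts was not tested. With only 2 shared numbers in most comparisons, the block rests on few pairs. Depth limits Mmp7, which lay under 3 reads in all mice other than colitis mice without BBR, and Mmp8, which lay under it in all 6 normal mice and in 2 of 3 colitis mice receiving BBR.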
